A study of Macaca mulatta with 16 samples.

Results

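The genes described here regulate whether a cell dies or survives. They are CASP8 (ENSMMUG00000031296), MLKL (ENSMMUG00000008378), GSDMD (ENSMMUG00000001633), NLRP3 (ENSMMUG00000005946), BIRC3 (ENSMMUG00000058594), CFLAR (ENSMMUG00000012310), BCL2A1 (ENSMMUG00000003364) and MCL1 (ENSMMUG00000053525), which are 8 of the 22515 genes in a table of RNA-Seq counts from rhesus macaque fetal lung. They were chosen by symbol from a list of 9. The ninth symbol, RIPK3, the kinase that phosphorylates MLKL, matched no gene identifier and was not analysed here.

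The lungs came from 16 fetuses in 5 groups, with 1 library of bulk, poly(A)-selected RNA per animal. Preterm controls (n = 4) had no intervention and were delivered at 131 to 135 days of gestation. The LPS 16h animals (n = 4) received 1 mg of LPS by intraamniotic injection and were delivered 16 hours later, at 130 or 131 days. The LPS 5d animals (n = 3) received the same dose and were delivered 5 days later at 131 to 134 days, and in the LPS + Beta-Ac group (n = 3) the dams also received 0.125 mg/kg of intramuscular betamethasone-acetate (Beta-Ac), with delivery after 5 days at 131 or 132 days. Term controls (n = 2) had no intervention and were delivered at 156 or 157 days. No control received an intraamniotic injection, and animals given Beta-Ac alone were not analysed here. The comparisons ask how these genes stood early and late after prenatal inflammation, with and without the maternal steroid, and near term.

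Apoptosis that starts at a death receptor runs through caspase-8, which CFLAR (cFLIP) restrains, while the ubiquitin ligase encoded by BIRC3 (cIAP2) holds the receptor complex in a survival state. MCL1 and BCL2A1 (BFL-1) protect the mitochondrial outer membrane from the pro-death members of the BCL2 family. Where caspase-8 is blocked, MLKL can perforate the plasma membrane in necroptosis, and in pyroptosis gasdermin D (GSDMD) forms pores once an inflammasome, such as that of NLRP3, has activated inflammatory caspases. BIRC3, BCL2A1, CFLAR and NLRP3 are known targets of NF-κB, and BCL2A1 and NLRP3 are strongly expressed in neutrophils and monocytes, which survive for only a short time without such signals.

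Totals ranged from 30596371 to 48052891 counts in the LPS 16h libraries and from 20169363 to 28348816 in the others, so that depth differed with that group. Values are CPM, which are counts relative to the size of the library, after TMM scaling, which sets libraries level by a trimmed mean of their log ratios, and are given as mean ± SD over animals. Fold changes are differences of log2 CPM with their standard error from limma. A gene is described as called, or as having risen or fallen, when the Benjamini-Hochberg adjusted p over 19199 tested genes was below 0.05 and the change was at least 2-fold. Nothing in the labels pairs the animals, and the p-values measure the spread between single animals. All comparisons with preterm controls share the same 4 animals. In these bulk samples, fewer cells of a type and less RNA per cell cannot be told apart.

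At 16 hours after LPS, 5 of the 8 genes had risen and none had fallen against preterm controls, where 8.3% of all genes tested were called higher and 6.07% lower. BCL2A1, BIRC3 and NLRP3 changed most, and MLKL and GSDMD a little over 2-fold. MCL1, CASP8 and CFLAR were also higher, but by less than 2-fold. All 8 had an adjusted p below 0.05 in the higher direction, against 18.7% of all genes. The median log2 fold change of the 8 genes was 1.19, and that of all genes was -0.09. Scaling by library totals alone placed that median of all genes at -0.29, and with it the share of calls that were higher fell from 57.8% to 39.4%. Under that scaling the 8 genes were still all higher, with a median of 0.98, but GSDMD dropped below 2-fold and the adjusted p of CFLAR was 0.076.

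**Figure D1:**
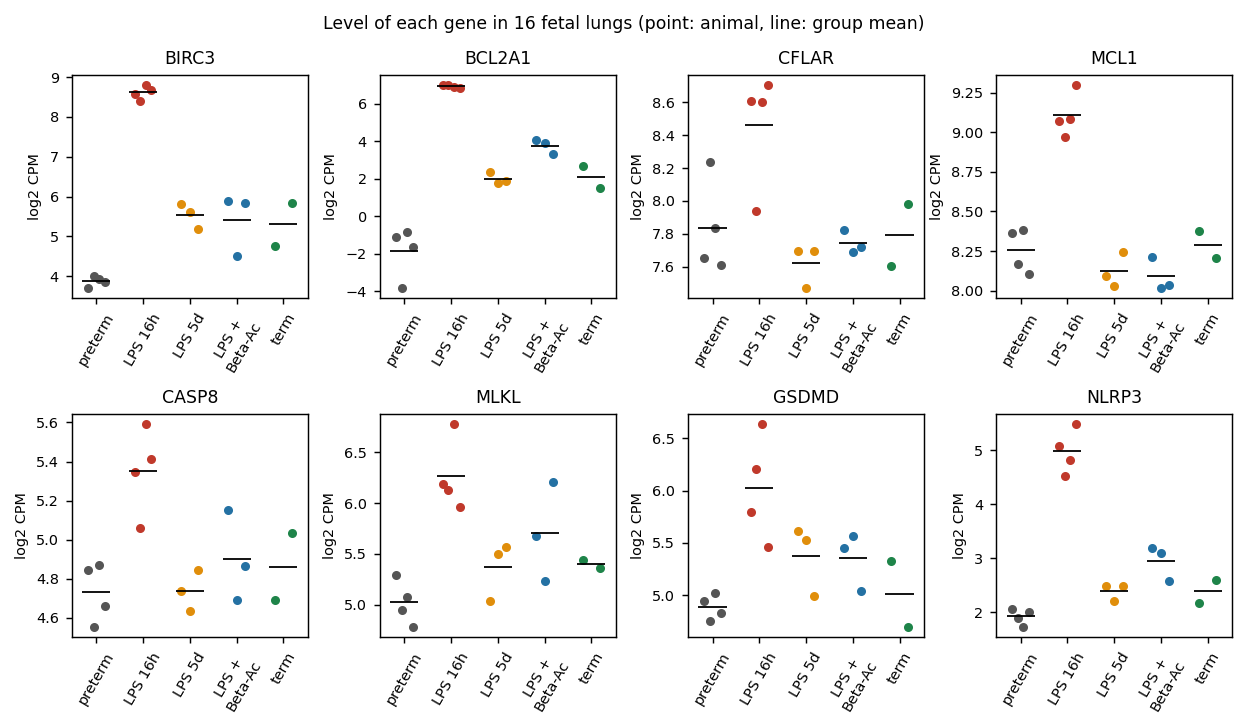
Log2 CPM (vertical axes, each with its own range) of the 8 genes in every animal of the 5 groups, with points for animals and lines for group means. BIRC3, BCL2A1 and NLRP3 stand highest in all 4 LPS 16h animals, and BCL2A1 is above the preterm controls in every animal of the other 4 groups.

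Of the survival genes, BCL2A1 and BIRC3 had the largest changes of all 8 genes, and MCL1 and CFLAR were among those under 2-fold. BCL2A1 was close to the limit of detection in preterm controls, at 0.392, 0, 0.497 and 0.255 CPM in animals 092, 101, 113 and 209. It was at 130, 130, 117 and 115 CPM in the 4 LPS 16h animals. The groups were far apart, and the LPS 16h animals differed little among themselves. Counts of BCL2A1 summed over a group were 30 in preterm controls, or 0.299 CPM with an exact 95% Poisson interval of 0.202 to 0.427, and 17507 in LPS 16h, or 122.5 CPM with an interval of 120.7 to 124.3. These intervals cover counting error only. The fitted log2 fold change was 8.79 ± 0.50 (SE; limma, adjusted p = 7.98e-09), a size that depends on the prior count because 1 control library held no read of the gene. Without that control, animal 101, it was 8.13, and with a prior count of 0.5 in place of 2 it was 9.43.

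BIRC3 was at 12.9 to 15.9 CPM in the preterm controls. The LPS 16h animals had 382, 339, 449 and 412 CPM, which is 27.0 times the control level (95% interval 17.8 to 40.8; log2 fold change 4.75 ± 0.28, limma adjusted p = 9.42e-09). Every LPS 16h animal lay above every animal of the other groups. BIRC2, its close paralog and neighbor in the RefSeq annotation of assembly T2T-MMU8v2.0, changed much less, from 101 to 148 CPM (log2 fold change 0.55, limma adjusted p = 0.000737). How reads common to both genes were divided cannot be seen from gene counts.

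MCL1, which encodes a short-lived protein and was abundant in every library, was higher by less than 2-fold. Its levels were 329, 288, 333 and 276 CPM in preterm controls and 539, 501, 543 and 631 CPM at 16 hours. The groups did not overlap, and the spread within each was small (log2 fold change 0.85 ± 0.10, limma adjusted p = 8.75e-06). CFLAR was at 201, 302, 228 and 195 CPM in preterm controls and 391, 245, 388 and 418 CPM at 16 hours. Here the groups overlapped through LPS 16h animal 029 and preterm control 101 (log2 fold change 0.63 ± 0.17, limma adjusted p = 0.00833).

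Of the 8 genes, NLRP3, MLKL and GSDMD act in necroptosis or pyroptosis, and among them NLRP3 had the largest difference. It was at 4.10, 3.65, 3.23 and 3.96 CPM in preterm controls and 33.9, 23.1, 28.1 and 44.9 CPM at 16 hours, or 8.34 times higher (95% interval 6.18 to 11.3; log2 fold change 3.06 ± 0.20, limma adjusted p = 2.13e-08). The lowest LPS 16h animal was far above the highest control. MLKL was at 27.3 to 39.1 CPM in preterm controls and 72.8, 69.8, 110 and 62.3 CPM at 16 hours (log2 fold change 1.24 ± 0.21, limma adjusted p = 0.000279). GSDMD was at 26.9 to 32.4 CPM in preterm controls and 55.4, 73.6, 99.3 and 43.9 CPM at 16 hours (log2 fold change 1.13 ± 0.23, limma adjusted p = 0.00113). Neither gene overlapped between the groups, and animal 035 was the highest for both. Without animal 035 the log2 fold change of GSDMD was 0.93, below the 2-fold limit, and that of MLKL was 1.07.

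CASP8, which starts the death receptor cascade, was at 28.7, 23.4, 29.2 and 25.2 CPM in preterm controls and 40.6, 33.3, 48.2 and 42.5 CPM at 16 hours (log2 fold change 0.62 ± 0.14, limma adjusted p = 0.0024). All LPS 16h animals were above all controls, by a narrow margin in animal 029. CFLAR and CASP8 stand on both sides of CASP10 in the RefSeq annotation of the same assembly, and their products act against each other at the receptor complex. The number of CFLAR counts per CASP8 count was 8.87 ± 2.73 (SD, n = 4) in preterm controls and 8.72 ± 1.21 (SD, n = 4) at 16 hours. In an exact two-sided permutation test on the log2 ratio the difference was 0.01 (p = 1.0). Over the 16 animals the ratio lay between 6.39 in a LPS + Beta-Ac animal and 12.9 in preterm control 101, and in the 6 comparisons made the lowest p was 0.143 (0.858 adjusted over the 6).

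**Figure D2:**
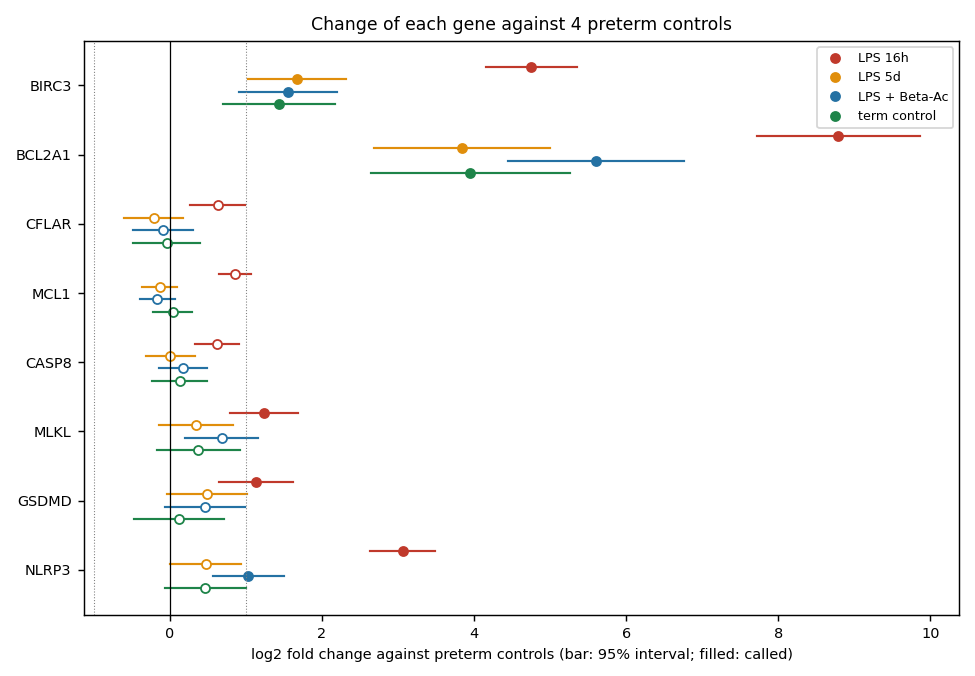
Log2 fold change of the 8 genes (horizontal axis) against the 4 preterm controls for LPS 16h, LPS 5d, LPS + Beta-Ac and term controls, with 95% intervals as bars, filled points for called values, and dotted lines at 2-fold. BCL2A1 and BIRC3 are called in all 4 comparisons, and MCL1, CFLAR and CASP8 in none.

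After 5 days, only BCL2A1 and BIRC3 were called against preterm controls, where 2.6% of all genes were called higher and 2.23% lower. The median log2 fold change of the 8 genes was 0.41, beside 0.00 over all genes. BCL2A1 was at 5.08, 3.30 and 3.56 CPM in the LPS 5d animals (log2 fold change 3.84 ± 0.54, limma adjusted p = 0.000562), and BIRC3 at 55.8, 48.8 and 36.3 CPM (log2 fold change 1.67 ± 0.30, limma adjusted p = 0.00234). Both were above all controls, and far below the LPS 16h animals. The value of BCL2A1 was 3.18 without preterm control 101 and 4.46 with a prior count of 0.5. NLRP3 was at 5.55, 4.53 and 5.55 CPM, just above the controls in every animal, and did not pass the test (log2 fold change 0.47 ± 0.22, limma adjusted p = 0.173). GSDMD (42.2 ± 9.15 CPM) and MLKL (41.7 ± 7.98 CPM) overlapped with the controls, with 95% intervals of the log2 fold change from -0.03 to 1.01 and from -0.14 to 0.83. CASP8 was at 26.7 ± 1.94 CPM, CFLAR at 197 ± 17.2 CPM and MCL1 at 279 ± 21.4 CPM (SD, n = 3). Their log2 fold changes were 0.01 (95% interval -0.31 to 0.32), -0.21 (-0.60 to 0.18) and -0.13 (-0.36 to 0.10), so that a change of 2-fold lay outside each interval.

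Compared directly, LPS 16h exceeded LPS 5d for all 8 genes. BCL2A1 (log2 fold change 4.95 ± 0.54, limma adjusted p = 7.93e-06), BIRC3 (3.09 ± 0.30, adjusted p = 2.53e-06) and NLRP3 (2.59 ± 0.22, adjusted p = 4.75e-07) were called, where 8.02% of all genes were called higher and 6.61% lower. With library totals alone these 3 genes were still called, while over all genes 6.06% were called higher and 9.89% lower. MCL1 lay just under 2-fold (0.99 ± 0.11, adjusted p = 5.8e-06), as did MLKL (0.90) and CFLAR (0.84). Adjusted p was below 0.05 for 7 of the 8 genes, all in the higher direction, against 19.4% of all genes, and GSDMD was the exception (0.65, limma adjusted p = 0.0534). Without LPS 16h animal 029, CFLAR (1.02) and MCL1 (1.03) were also called, and without LPS 5d animal 242, MLKL (1.00) and MCL1 (1.05).

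With LPS + Beta-Ac, 3 of the 8 genes were called higher than in preterm controls, where 4.05% of all genes were called higher and 2.44% lower. The median log2 fold change was 0.57, beside -0.01 over all genes. BCL2A1 was at 16.9, 14.8 and 9.82 CPM in animals 248, 249 and 255, all above the LPS 5d animals and the term controls (log2 fold change against preterm controls 5.61 ± 0.54, limma adjusted p = 1.77e-05). That value was 4.95 without preterm control 101 and 6.24 with a prior count of 0.5. BIRC3 was at 59.5, 22.8 and 57.1 CPM, where animal 249 stood apart but still above the controls (log2 fold change 1.55 ± 0.30, limma adjusted p = 0.00275). NLRP3 was at 9.03, 8.47 and 5.93 CPM, just past 2-fold (log2 fold change 1.03 ± 0.22, limma adjusted p = 0.00439). Its change fell below 2-fold without preterm control 113 (0.97), LPS + Beta-Ac animal 248 (0.92) or animal 249 (0.99). MLKL, at 51.0, 37.5 and 73.9 CPM, missed the threshold (log2 fold change 0.68 ± 0.23, limma adjusted p = 0.0507). GSDMD was at 41.2 ± 7.48 CPM and above the controls in all 3 animals (log2 fold change 0.46 ± 0.25, limma adjusted p = 0.225). CASP8 (30.1 ± 4.92 CPM), CFLAR (214 ± 10.7 CPM) and MCL1 (273 ± 21.0 CPM) overlapped with the controls.

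Between LPS + Beta-Ac and LPS 5d, limma called none of the 8 genes, and 0.104% of all genes were called higher and 0 genes, or 0%, lower. The largest differences of the 8 were those of BCL2A1 (log2 fold change 1.77, 95% interval 0.53 to 3.01, limma adjusted p = 0.539) and NLRP3 (0.56, 95% interval 0.06 to 1.06, limma adjusted p = 0.908). For both genes each of the 3 LPS + Beta-Ac animals was above each LPS 5d animal. The exact two-sided permutation p was 0.1, the smallest that 3 against 3 allows. The share of all genes separated in this way was not counted. Without preterm control 101, whose BCL2A1 count of 0 enters the shared estimate of the spread, BCL2A1 was called. BIRC3 had a log2 fold change of -0.12 with a wide 95% interval of -0.81 to 0.57, and that of MLKL was 0.34 (-0.18 to 0.86).

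In the 2 term controls, BCL2A1 was at 6.43 and 2.78 CPM and BIRC3 at 27.2 and 57.0 CPM. Both were called against preterm controls (log2 fold changes 3.95 ± 0.61 and 1.43 ± 0.34, limma adjusted p = 0.00475 and 0.0338), where 1.11% of all genes were called higher and 0.953% lower. Each value was above all 4 preterm controls. With 2 term animals these calls were fragile. BIRC3 was not called without term control 201 (log2 fold change 0.90) or without preterm control 092, 101 or 113 (adjusted p 0.0569 to 0.0785), and BCL2A1 was not called without term control 200 (log2 fold change 3.36, adjusted p = 0.0724). The log2 fold change of BCL2A1 was 3.29 without preterm control 101, 4.55 without term control 201 and 4.58 with a prior count of 0.5. MLKL (43.2 and 41.0 CPM) and NLRP3 (4.45 and 6.01 CPM) were above all preterm controls without passing the test (log2 fold changes 0.38 and 0.47, limma adjusted p = 0.476 and 0.335). CASP8 was at 29.2 ± 4.89 CPM, CFLAR at 224 ± 40.9 CPM and MCL1 at 314 ± 25.6 CPM (SD, n = 2), and GSDMD at 40.0 and 25.8 CPM, within or around the preterm range.

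Ordered by group mean, BCL2A1 was highest in LPS 16h, then in LPS + Beta-Ac, and lowest in preterm controls, with LPS 5d and the term controls between and overlapping each other. NLRP3 had the same order, except that LPS + Beta-Ac overlapped with the term controls. For BIRC3 the LPS 5d, LPS + Beta-Ac and term groups overlapped, and all were between LPS 16h and preterm controls. For MCL1 and CASP8 the 4 groups other than LPS 16h overlapped with one another.

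Markers of blood leukocytes differed between the groups. The summed level of 15 neutrophil markers was 39.7 to 78.7 CPM in preterm controls, 2015 to 2607 in LPS 16h, 184 to 185 in LPS 5d, 370 to 792 in LPS + Beta-Ac and 213 to 253 in term controls. Single markers varied more than the sum in LPS 5d, such as MMP9 (28.5 to 72.7 CPM) and LTF (21.1 to 70.2 CPM). Of these 15 markers, 12 were called higher at 16 hours, 6 at 5 days, 11 with LPS + Beta-Ac and 6 at term. Over all genes, 8.3%, 2.6%, 4.05% and 1.11% were called higher in the same order. No neutrophil marker was at 0 throughout a group, but MPO and ELANE, which neutrophil precursors transcribe, stayed at 0.204 to 0.720 and 0.163 to 0.533 CPM in LPS 16h. CXCR2 averaged 14.3 CPM in preterm controls, 13.8 in LPS 16h, 29.8 in LPS 5d, 26.6 in LPS + Beta-Ac and 20.6 at term. The 13 monocyte and macrophage markers summed to 310 to 458 CPM in preterm controls, 1481 to 1823 in LPS 16h, 399 to 430 in LPS 5d, 631 to 985 in LPS + Beta-Ac and 428 to 537 in term controls. In the order of the calls above, 11, 7, 11 and 5 of them were called higher, beside the same shares of all genes. VCAN held much of this sum, with means of 187 CPM in preterm controls and 130 CPM in LPS 5d. In LPS 5d 10 of the 13 were higher than in preterm controls, with a median log2 fold change of 1.13. MARCO, a scavenger receptor of macrophages, had no count in any preterm control. The 12 lymphocyte markers summed to 57.3 to 95.4 CPM in preterm controls and 107 to 195 CPM in the other groups. The part of these cells in the levels of the 8 genes was not tested. Mean levels of markers of the lung's own cells also varied over the groups. The 10 epithelial markers were present in every group, with mean sums of 9706 CPM in preterm controls, 16234 in LPS 16h, 22721 in LPS 5d, 26034 in LPS + Beta-Ac and 21231 at term. In the same order the 7 mesenchyme markers summed to means of 15482, 9965, 9774, 7935 and 6817 CPM, and the 6 endothelium markers to 2300, 1912, 1790, 1936 and 1503 CPM. Their part in the levels of the 8 genes was likewise not tested.

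**Figure D3:**
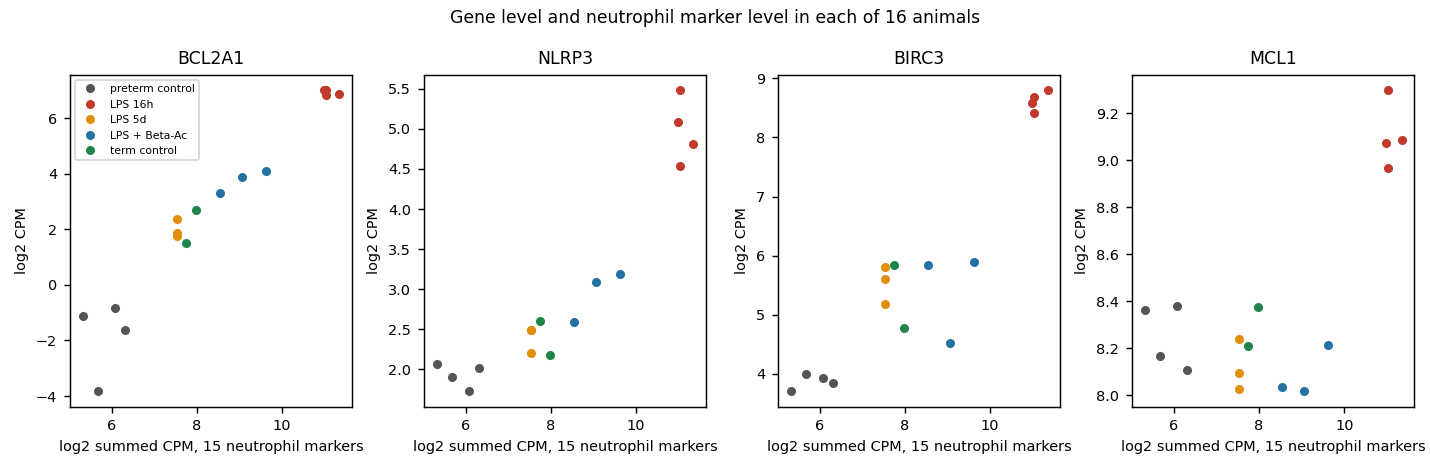
Log2 CPM of BCL2A1, NLRP3, BIRC3 and MCL1 (vertical axes) against the log2 of the summed CPM of 15 neutrophil markers (horizontal axes) in the 16 animals, colored by group. BCL2A1 and NLRP3 are ordered much like the markers over the groups, while MCL1 in LPS 5d, LPS + Beta-Ac and term controls lies at the level of the preterm controls although their marker sums are higher.

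The genes whose levels followed each member most closely over the 16 animals were found by Pearson correlation of log2 CPM, a measure that takes in the difference between LPS 16h and the rest. For BCL2A1 they were TREM1 (r = 0.985), a receptor of neutrophils and monocytes, THEMIS2 (0.983) and KYNU (0.982). For NLRP3 they were ACOD1 (0.987), the itaconate-producing enzyme of activated macrophages, PLEK (0.985) and TREML2 (0.985). For BIRC3 they were the NF-κB feedback genes ZC3H12A (0.980) and NFKBIA (0.977), and IL1B (0.975). After group means were removed, these r values ranged down to 0.340, for BIRC3 with NFKBIA. MLKL was closest to OPTN (0.935), RNF114 (0.920) and ALPK1 (0.909), and GSDMD to ABHD16A (0.963), MGAT1 (0.960) and SDF4 (0.955), which kept r of 0.874 to 0.916 within groups. The LPS 16h libraries were also the deepest, and these values are descriptions only.

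Other genes of the same pathways were taken from lists. Over all genes tested, 8.3% were called higher at 16 hours, 2.6% in LPS 5d, 4.05% in LPS + Beta-Ac and 1.11% at term. At 16 hours, 5 of 11 death receptor genes and adaptors rose (median log2 fold change 0.91, beside -0.09 over all genes). Among them were the TRAIL receptor TNFRSF10B, from 11.5 to 57.2 CPM, TNFRSF21, from 32.5 to 88.0 CPM, and the TNF receptor TNFRSF1A, from 136 to 304 CPM. FASLG was also called, at under 1 CPM in every group mean. The adaptor FADD, which joins receptors to CASP8, was at 19.0 and 17.0 CPM.

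In the BCL2 family, the pro-survival gene BCL2 rose at 16 hours from 2.79 to 6.58 CPM with overlap between the groups, and BCL2L1, the only other member tested, was at 146 and 165 CPM. Of 10 pro-death members, BID rose from 12.7 to 31.3 CPM and PMAIP1 (NOXA), whose product binds MCL1 and BCL2A1, from 5.87 to 12.5 CPM (median of the 10 genes 0.43). BBC3 (PUMA) was instead called at 5 days, in LPS 5d (11.6 CPM) and LPS + Beta-Ac (13.7 CPM) against 5.08 CPM in preterm controls, and it was at 3.90 CPM in LPS 16h. BBC3 was lower in LPS 16h than in LPS 5d (log2 fold change -1.53, limma adjusted p = 6.08e-05), whereas PMAIP1 was higher (2.12, limma adjusted p = 3.89e-05). Of 17 p53 targets, a list that holds both genes, 6 rose at 16 hours (median log2 fold change 0.57), 2 in LPS 5d (0.18), 2 in LPS + Beta-Ac (0.31) and 1 at term (0.00), where 8.3%, 2.6%, 4.05% and 1.11% of all genes were called higher, and ZMAT3 was among them in all 4 comparisons. At 16 hours 13 of the 17 were higher than in preterm controls and 0 were called lower. Among those lower without a call were SESN1, from 80.9 to 42.2 CPM, and TP53INP1, from 113 to 63.2 CPM.

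Of 9 inhibitors of apoptosis and their antagonists, TRAF1, a partner of BIRC3, rose at 16 hours from 29.3 to 100 CPM and NAIP from 8.28 to 22.3 CPM, while BIRC7 fell from 9.23 to 1.48 CPM (median 0.55). BIRC5 (survivin), which also serves cell division, fell from 10.3 CPM in preterm controls to 3.33 CPM in LPS 5d, 4.10 CPM with LPS + Beta-Ac and 2.95 CPM at term. CYCS, which encodes cytochrome c, fell in the same 3 groups, from 54.7 CPM to 21.6, 19.7 and 26.8 CPM, and was at 74.2 CPM in LPS 16h. No other gene of the apoptosis lists was called lower against preterm controls.

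Of 9 necroptosis partners of MLKL, 3 rose at 16 hours (median 0.83), where 8.3% of all genes were called higher. All of them restrain or feed the pathway from upstream, and they were the NF-κB feedback enzyme TNFAIP3 (A20), from 44.8 to 587 CPM, the adaptor TICAM1 (TRIF), from 11.4 to 33.2 CPM, and the deubiquitinase CYLD, from 32.2 to 80.2 CPM. RIPK1, the upstream kinase, went from 28.6 to 51.2 CPM, under 2-fold (log2 fold change 0.83, limma adjusted p = 8.26e-05). The nucleic acid sensor ZBP1 was called in LPS 5d and LPS + Beta-Ac, at 2.35 and 2.65 CPM against 0.827 CPM, and not at 16 hours (1.54 CPM, limma adjusted p = 0.132).

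Pyroptosis partners of NLRP3 and GSDMD held the most calls. At 16 hours 9 of 15 rose (median log2 fold change 1.47), where 8.3% of all genes were called higher. IL1B, the cytokine that leaves the cell through GSDMD pores, went from 1.07 to 1129 CPM. CASP5 went from 0.899 to 6.64 CPM and CASP4, the other sensor of intracellular LPS, from 30.2 to 83.8 CPM. The adaptor PYCARD (ASC) went from 3.64 to 11.8 CPM and MEFV (pyrin) from 6.30 to 27.3 CPM. In LPS 5d only IL1B (6.88 CPM) and CASP5 (2.13 CPM) were called (median 0.74), and at term CASP5 and AIM2 (median 0.40). Over all genes, 2.6% were called higher in LPS 5d and 1.11% at term. With LPS + Beta-Ac 10 of 15 were called (median 1.21), where 4.05% of all genes were called higher. Among the 10 were IL1B at a mean of 18.8 CPM (6.41 to 38.1), NLRP1 at 8.28 CPM (5.82 to 10.1) and PYCARD at 10.1 CPM (5.35 to 13.3). Each of these ranges overlapped that of LPS 5d, which was 6.13 to 7.26, 2.92 to 6.28 and 6.17 to 6.75 CPM in the same order. Against LPS 5d directly none of the 15 was called, where 0.104% of all genes were called higher and 0% lower. Of the 15, 14 were higher with Beta-Ac (median 0.46, beside -0.0005 over all genes). The difference in the number of calls between the groups was not itself tested. NEK7, the kinase that NLRP3 needs for assembly, was lower, at 78.4 CPM in LPS 16h, 80.1 in LPS 5d and 71.6 with LPS + Beta-Ac against 143 CPM, a change below 2-fold in each (limma adjusted p = 0.000758, 0.0069 and 0.00161). The neutrophil and monocyte marker sums given above were highest in LPS 16h and second in LPS + Beta-Ac as well, and their part in these counts was not tested.

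**Figure D4:**
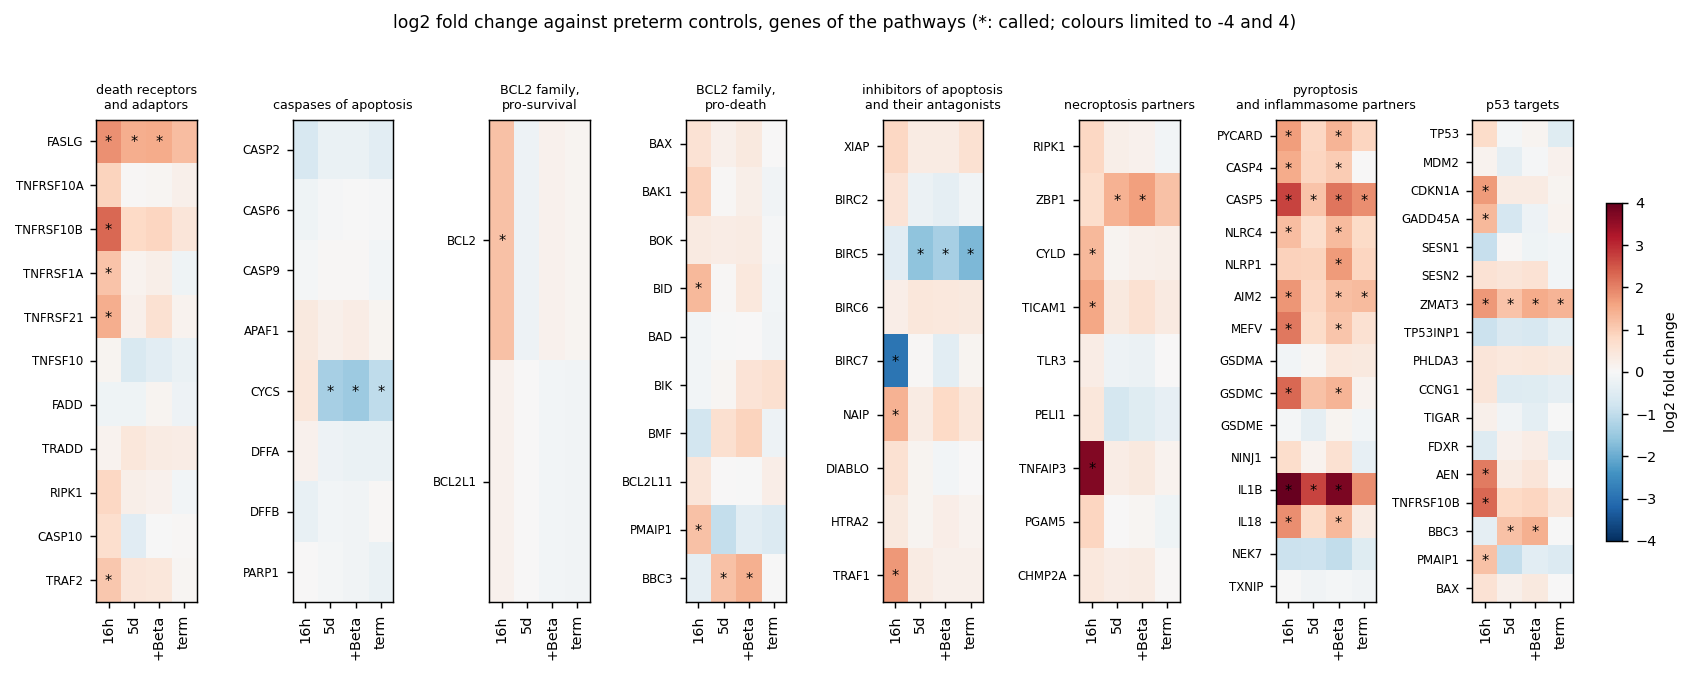
Log2 fold change against the 4 preterm controls (color, limited to -4 and 4) of genes of 8 pathway lists in LPS 16h, LPS 5d, LPS + Beta-Ac and term controls, with an asterisk where a gene was called. Pyroptosis partners are called mostly in LPS 16h (9 of 15) and LPS + Beta-Ac (10 of 15), where 8.3% and 4.05% of all genes are called higher. CYCS and BIRC5 are lower in the last 3 columns.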

How the data were processed

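Snap-frozen left lung was extracted and sequenced by the authors as 75 bp paired-end reads after poly(A) selection. With kallisto they assigned the reads to Mmul_10, and with tximport they formed gene values. DESeq2 served the authors for their comparisons. The authors deposited whole-number counts, 1 per gene and animal and not normalized. The sources used here give neither tool versions nor the annotation release, so rounding of estimated counts may be part of these values. The table's layout kept its unit from being read as counts by the format check, so count models were not run, and limma took their place.

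Groups came from the sample labels. Symbols were matched by Ensembl identifier, and 17256 of 22515 identifiers had one. CASP1, CARD8, FAS, BCL2L2 and HRK matched no identifier, and FCGR3A was matched through a synonym. Genes with at least 0.371 CPM in 2 animals and 15 counts in total were tested, which removed BCL2L10 and GSDMB from the lists. TMM factors (30% and 5% trims) came from a custom R function, and log2 CPM with a prior count of 2 were fitted in R 4.3.3 with limma 3.58.1 (trend and robust options, 1 mean per group, all 16 animals). The steps were tested on simulated data. The members, lists and comparisons were chosen with earlier results of these data known. All members are named. From each list, the plan was to name the called genes with the largest changes (at most 4 per comparison). It was not followed throughout, and GSDMC, AEN and CDKN1A, which it covered at 16 hours, are not described. Others (FADD, BCL2L1, RIPK1, NEK7, BIRC2, CASP4 and PYCARD among them) were named after their values were seen. Alternatives were other scalings, filters, priors, fits and leaving out each animal. Replicate libraries differed by far more than counting error (chi-square per degree of freedom 31.1 to 166.1). Results of some list genes are not reported here. Sequences and coordinates are not given.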

Additional observations from a re-analysis of the deposited data

Results flagged for a closer look

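CFLAR in LPS 16h animal 029 stood apart from its group, at a log2 CPM of 7.94, where the other 3 animals lay between 8.60 and 8.71. The gap was 0.86 of the group's range, above Dixon's 95% critical value for 4 samples, and chance alone sets apart about 1 in 20 groups of this kind. Groups of 4 could be examined for each of the 8 genes in preterm controls and LPS 16h, which makes 16 groups. The same animal also had the lowest values of CASP8, NLRP3, BIRC3 and MCL1 among the LPS 16h animals. Its library differed from theirs over all genes as well. The chi-square per degree of freedom was 121.6 to 166.1 in the LPS 16h pairs with animal 029 and 69.2 to 81.2 in those without it.

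The effect of LPS at 16 hours was larger than that at 5 days by at least 2-fold for 3 genes, by a test of the difference itself (LPS 16h against LPS 5d, limma). Over all genes tested, 8.02% were called higher in that test. In that test 7 of the 8 genes had an adjusted p below 0.05, the other 4 of them with a difference under 2-fold. Of all genes, 19.4% had an adjusted p below 0.05 in the higher direction. The log2 difference was 4.95 for BCL2A1, 3.09 for BIRC3 and 2.59 for NLRP3, and every LPS 16h animal was above every LPS 5d animal for each of them. How many of all genes were separated like this was not counted.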

How the results depend on the processing

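No paired analysis was possible because the groups share no animal number. Of 39 member fold changes reported, 26 kept their direction and their side of the threshold under all 9 alternatives and without each animal of the groups compared in turn, and none past the threshold changed direction. Without a minimum on the fold change, 8 members were called in LPS 16h against preterm controls and 7 in LPS 16h against LPS 5d. Over all genes tested, 38.3% and 35% passed that looser rule in the same comparisons, in either direction. In term against preterm controls, 1 member was called with limma-voom and 0 when only the groups compared were fitted, where adjusted p was 0.0605 for BIRC3 and 0.0832 for BCL2A1. Leaving out 1 animal gave 1 to 2 members at term, 3 to 5 in LPS 16h against LPS 5d, 4 to 5 in LPS 16h against preterm controls and 0 to 1 in LPS + Beta-Ac against LPS 5d. The 3 members called in LPS + Beta-Ac against preterm controls became 2 without preterm control 113 or LPS + Beta-Ac animals 248 or 249. The small difference of CASP8 in LPS 5d turned with library totals (-0.0070) and without preterm controls 101 or 209 or LPS 5d animal 242 (-0.053 to 0.059 over animals left out), and that of BIRC3 between LPS + Beta-Ac and LPS 5d without LPS 5d animal 239 (0.018) or LPS + Beta-Ac animal 249 (0.33), with a range of -0.36 to 0.33. The cause was not tested. Thinning every library to the smallest total, added after seeing the data because the LPS 16h libraries were deeper, left all 6 counts of called members as they were. Depth limits BCL2A1 in preterm controls, where 3 counts in the smallest library are 0.139 CPM, and the number of animals limits the rest, above all at term.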
